A study of Mus musculus with 12 samples.

Results

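The genes described here encode the enzymes of hepatic conjugation. They are glutathione transferases (Gst), microsomal glutathione transferases (Mgst), UDP-glucuronosyltransferases (Ugt) and cytosolic sulfotransferases (Sult). The Gst genes comprise the cytosolic classes alpha, mu, omega, pi, theta and zeta and the mitochondrial and peroxisomal class kappa. All were selected by gene symbol and not by any measured value. In all, 59 genes were found among the 20017 gene symbols that had a probe on the array, of which 22 were Gst, 3 Mgst, 14 Ugt and 20 Sult genes. They were covered by 81 of 39429 probes, and a gene with several probes was represented by the probe of highest mean signal. A further 10 genes with matching symbols had no probe assigned here, including Ugt1a1, the glucuronosyltransferase of bilirubin.

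The expression was measured in liver of db/db mice, which lack a functional leptin receptor and become obese and diabetic, after ingestion of molecular hydrogen (H2). All mice, controls included, were male, carried the same receptor defect on the BKS.Cg background and were 8 weeks old, and no lean mice were analysed here. MgH2, a solid that releases H2 in water, was given by gavage once a day for 1, 3 or 7 days at a labelled dose of 0.9 mg/kg, against Mg(OH)2 as control, and in another group saturated H2-water (0.8 mM H2) was drunk freely for 14 days, against degassed water. The study names the labelled dose for the same time course, whereas its general methods state higher doses of MgH2.

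Each of the 4 groups had 3 two-colour arrays. RNA of 9 mice per group was pooled in sets of 3 mice, so that 1 array compared 1 treated pool with 1 control pool, and the p-values measure the spread between pools. Control RNA was labelled with Cy3 and treated RNA with Cy5 on every array, and the effects of dye and treatment cannot be told apart. Values are log2 ratios of treated over control, with the SD or SE of 3 arrays. A gene was tested at a time where its probe was well above background in both channels of all 3 arrays, and was called higher or lower where its limma p, after Benjamini-Hochberg adjustment for every probe tested at that time, was under 0.05.

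Glutathione transferases join glutathione to electrophilic compounds, glucuronosyltransferases add glucuronic acid from UDP-glucuronate, and sulfotransferases add sulfate from PAPS (3'-phosphoadenosine 5'-phosphosulfate). The liver uses these reactions to make drugs, bilirubin, bile acids, steroids and products of lipid peroxidation more soluble for export into bile or blood. Many of the genes are induced by xenobiotic receptors or by the oxidative stress factor Nrf2, and in rodents several Sult2a and Sult3a genes are expressed mainly in female liver under the control of growth hormone.

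Promoters of members that turn up in the results below are printed to show how closely neighbours within a family resemble each other. The sequences were taken from RefSeq (GRCm38.p6), comprise the 250 bases before the transcription start and run 5' to 3' on the strand of the gene. RefSeq promoters were matched for 51 of the 59 genes. Capitals mark a searched motif: TTCNNNGAA, the core of a STAT site, in Gsta1; TGACNNNGC, the core of the antioxidant response element bound by Nrf2, in Gsta3; TGAGTCA, an AP-1 site, in both Gstp genes; and GTTAATNAT in the 3 Sult2a genes.
Gsta1 (chr9:78230419-78230668, plus strand): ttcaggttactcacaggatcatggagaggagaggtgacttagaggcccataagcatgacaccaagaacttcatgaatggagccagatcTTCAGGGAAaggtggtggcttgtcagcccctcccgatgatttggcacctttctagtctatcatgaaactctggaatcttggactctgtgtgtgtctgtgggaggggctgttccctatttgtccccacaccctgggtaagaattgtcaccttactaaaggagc
Gsta2 (chr9:78347146-78347395, minus strand): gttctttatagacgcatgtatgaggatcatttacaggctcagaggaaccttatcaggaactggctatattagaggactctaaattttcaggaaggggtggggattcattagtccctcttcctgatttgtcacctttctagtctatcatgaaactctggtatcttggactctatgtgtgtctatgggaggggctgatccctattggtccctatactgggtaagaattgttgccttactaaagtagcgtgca
Gsta3 (chr1:21240335-21240584, plus strand): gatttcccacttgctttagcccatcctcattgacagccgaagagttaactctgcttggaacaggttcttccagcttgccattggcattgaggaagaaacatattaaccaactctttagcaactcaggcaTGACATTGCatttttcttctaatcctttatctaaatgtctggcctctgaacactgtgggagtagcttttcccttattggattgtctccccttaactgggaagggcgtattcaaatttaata
Gstp1 (chr19:4037913-4038162, minus strand): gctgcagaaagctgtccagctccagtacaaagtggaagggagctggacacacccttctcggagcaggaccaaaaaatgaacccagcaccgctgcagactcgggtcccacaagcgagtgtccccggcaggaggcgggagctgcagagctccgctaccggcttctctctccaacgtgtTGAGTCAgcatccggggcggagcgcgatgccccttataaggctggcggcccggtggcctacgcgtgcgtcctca
Gstp2 (chr19:4042222-4042471, minus strand): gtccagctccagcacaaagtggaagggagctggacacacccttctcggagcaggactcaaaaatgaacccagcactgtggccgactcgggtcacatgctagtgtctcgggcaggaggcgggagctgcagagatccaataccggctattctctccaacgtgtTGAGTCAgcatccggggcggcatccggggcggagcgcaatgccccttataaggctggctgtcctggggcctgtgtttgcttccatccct
Sult2a3 (chr7:14123049-14123298, minus strand): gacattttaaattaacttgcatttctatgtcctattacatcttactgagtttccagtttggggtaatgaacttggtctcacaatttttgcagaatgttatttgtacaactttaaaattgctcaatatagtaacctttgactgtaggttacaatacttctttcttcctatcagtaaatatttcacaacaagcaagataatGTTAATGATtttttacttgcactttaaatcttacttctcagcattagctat
Sult2a4 (chr7:13989589-13989838, minus strand): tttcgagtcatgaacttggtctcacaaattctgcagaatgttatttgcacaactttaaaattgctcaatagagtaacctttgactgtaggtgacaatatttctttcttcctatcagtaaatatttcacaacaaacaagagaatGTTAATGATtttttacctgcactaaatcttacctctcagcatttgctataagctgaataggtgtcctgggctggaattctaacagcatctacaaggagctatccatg
Sult2a6 (chr7:14254871-14255120, minus strand): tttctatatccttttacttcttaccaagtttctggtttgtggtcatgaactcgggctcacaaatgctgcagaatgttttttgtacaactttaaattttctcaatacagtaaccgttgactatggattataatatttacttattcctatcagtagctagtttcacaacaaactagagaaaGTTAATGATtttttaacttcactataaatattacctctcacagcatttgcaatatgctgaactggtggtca

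The aligned promoters of Gsta1 and Gsta2 were identical at 77.0% of 239 aligned bases, those of Gstp1 and Gstp2 at 88.5% of 235 and those of Sult2a3 and Sult2a4 at 92.7% of 192, whereas Gsta1 and Sult2a3, which are unrelated, matched at 56.7% of 208. Both strands were searched for each motif. The GTTAATNAT motif was present in 5 of 63 member promoters (7.94%; Sult1d1, Sult2a3, Sult2a4, Sult2a6 and Ugt1a10) and in 0.737% of all 32851 promoters. TGACNNNGC was present in 6.35% of the member promoters (Gsta3, Gstm5, Gstm7 and Mgst1) and in 10.2% of all, TGAGTCA in 11.1% and 4.46%, and TTCNNNGAA in 6.35% and 7.02%. A match describes letters in this window and says nothing of binding. Since transcripts of such neighbours are also alike, probes for the Gsta, Gstm, Gstp, Sult2a and Ugt genes may bind each other's transcripts, which was not tested.

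Of all spots, 51.8 to 56.5% were above background in both channels per array, and no spot was saturated. The arrays lay on 4 slides, and the 3 H2-water arrays had a slide of their own, so that slide and treatment cannot be told apart there. Among the MgH2 arrays, the control channels of equal replicate number resembled each other on different days: over 49 members the median absolute log2 difference in Cy3 signal was 0.0512 for equal numbers (9 pairs of arrays) and 0.170 for unequal numbers (18 pairs). In the treated channel the values were 0.166 and 0.146. The labels name a separate control for each day. Whether the same control RNA was hybridized on several days was not tested, and the ratios at 1, 3 and 7 days are therefore given side by side and are not counted as independent.

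In total 49 members were tested at all 4 times. Another 4 were tested at some times (Gsto2, Sult2a4, Ugt1a6a and Ugt2a1), and 6 at none (Gstt4, Mgst2, Sult1c1, Sult2b1, Sult6b1 and Sult6b2). Of the latter, all but Mgst2, a microsomal enzyme of leukotriene C4 synthesis, were below background in both channels of all 12 arrays.

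**Figure D1:**
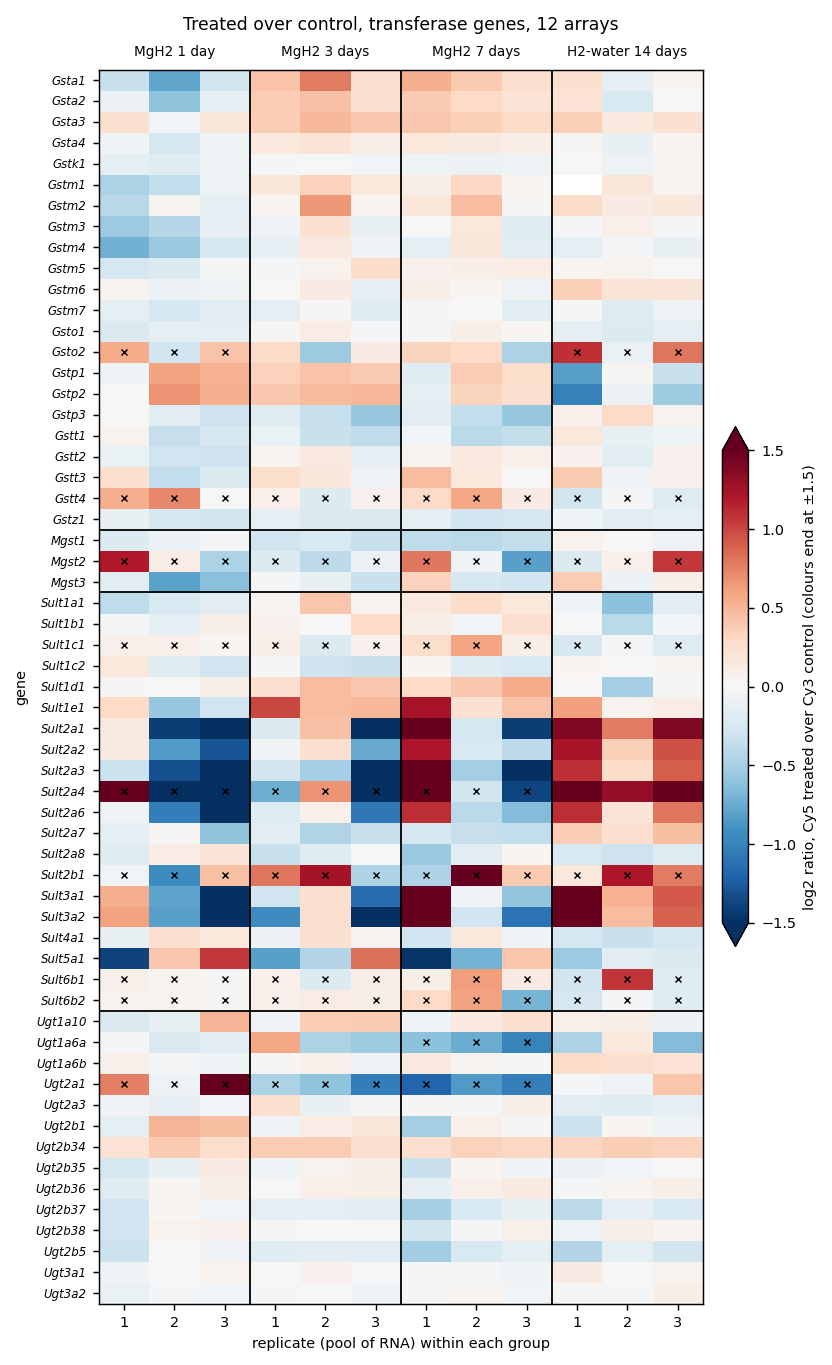
Heat map of the log2 ratio of treated over control (colour scale) for the 59 genes (vertical axis, by family) on each of the 12 arrays (horizontal axis, by group and replicate). Crosses mark genes not tested in that comparison and the blank cell is the Gstm1 spot left out on 1 H2-water array. Most members lay near 0, and the Gst block was mostly below 0 at 1 day. The strongest colours were among Sult5a1 and several Sult2a and Sult3a genes, some of which changed sign between arrays of 1 group.

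After 1 day of MgH2, 10 of 50 members tested were called, 1 higher and 9 lower, and of all probes tested 9.38% were called at that time, 5.15% higher and 4.23% lower. After 3 days 11 of 51 were called, 7 higher and 4 lower, against 23.4% of all probes, 12.3% higher and 11.1% lower. After 7 days 11 of 50 were called, 5 higher and 6 lower, against 29.5%, 15.3% higher and 14.2% lower. After 14 days of H2-water 5 of 52 were called, 4 higher and 1 lower, against 8.86%, 4.95% higher and 3.91% lower. The share of members called was thus above that of all probes at 1 day and not at 3 and 7 days.

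The counts of called members depended on single arrays and on the scaling. The share of all probes called is not given for these alternatives or for those further below. Such counts therefore describe the members only and cannot be set against all probes. At 1 day 3, 1 and 4 members were called without replicate 1, 2 and 3, at 3 days 6, 3 and 4, at 7 days 7, 6 and 6, and at 14 days 1 in each case. Centring each array on the median of all probes gave 1 higher and 2 lower at 1 day, 4 and 4 at 3 days, 3 and 10 at 7 days and 5 and 0 at 14 days, and normexp background correction with loess gave 3 and 7, 10 and 2, 8 and 5, and 6 and 4. Scaling by channel totals gave 5 higher and 5 lower at 3 days, 4 and 8 at 7 days and 4 and 2 at 14 days. When only the arrays of the group itself were fitted, 0, 1, 7 and 3 members were called at 1, 3, 7 and 14 days.

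The Gst genes called at 1 day were all lower, while at later times calls went both ways. At 1 day 9 of 20 tested Gst genes were called lower and 0 higher, while 4.23% of all probes were called lower, and the median log2 ratio of the family was -0.17 against -0.003 for all probes. At this time 17 of the 20 lay below 0, and 12 of them on all 3 arrays. The shares of all probes that did so are not given, so these counts describe the members only. At 3 days the family median was 0.04 with 4 genes called higher and 2 lower of 21, at 7 days 0.09 with 2 and 2 of 21, and after H2-water -0.003 with 2 and 1 of 20. With arrays centred on the median, only 2 members of any family remained called lower at 1 day, Gstm4 and Gstz1.

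Among the alpha class, which detoxifies products of lipid peroxidation and binds bilirubin and steroids, Gsta1 was lower at 1 day and higher at 3 and 7 days. Its log2 ratios were -0.33, -0.78 and -0.27 at 1 day, 0.42, 0.78 and 0.25 at 3 days, 0.53, 0.40 and 0.23 at 7 days and 0.24, -0.12 and 0.03 after H2-water. All 3 arrays lay below 0 at 1 day and all 6 arrays of 3 and 7 days above 0, with no overlap. The means were -0.46 ± 0.12 (SE of the limma fit, n = 3, limma adjusted p = 0.0394), 0.49 ± 0.12 (adjusted p = 0.017), 0.39 ± 0.12 (adjusted p = 0.0339) and 0.05 ± 0.12 (adjusted p = 0.861). The call at 1 day was lost without any 1 of the arrays (adjusted p = 0.0674 to 0.23), that at 3 days without replicate 1 (0.0511) or 2 (0.122), and that at 7 days without any 1 (0.0638 to 0.171).

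Gsta2, the neighbour of Gsta1 with the similar promoter printed above, had ratios of -0.09, -0.60 and -0.15 at 1 day, 0.38, 0.44 and 0.23 at 3 days, 0.39, 0.30 and 0.21 at 7 days and 0.22, -0.22 and -0.01 after H2-water. It was called higher at 3 days only (0.35 ± 0.10, adjusted p = 0.0336), and the call was lost without any 1 array. Gsta4, the transferase with high activity for 4-hydroxynonenal, followed the same order with smaller values and was called higher at 3 days (0.14, 0.20 and 0.10 on the arrays, mean 0.15 ± 0.05, adjusted p = 0.0424), which was likewise lost without any 1 array.

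Gsta3, which in mouse conjugates the epoxide of aflatoxin B1, was higher than control at 3, 7 and 14 days. Its ratios were 0.24, -0.04 and 0.18 at 1 day, 0.37, 0.50 and 0.41 at 3 days, 0.41, 0.36 and 0.29 at 7 days and 0.35, 0.14 and 0.23 after H2-water. At 3, 7 and 14 days all 9 arrays were above 0, and at 1 day 1 array was below. The means of 0.42 ± 0.06 (adjusted p = 0.00118), 0.35 ± 0.06 (adjusted p = 0.00191) and 0.24 ± 0.06 (adjusted p = 0.0326) corresponded to 1.34-, 1.28- and 1.18-fold. The calls at 3 and 7 days held without any 1 array, whereas that at 14 days was lost without any 1 (adjusted p = 0.0675 to 0.205). The other probe of Gsta3 gave 0.15 at 3 days (adjusted p = 0.0571), 0.09 at 7 days (adjusted p = 0.2) and 0.03 at 14 days (adjusted p = 0.744), so that the calls rest on 1 probe.

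In the mu class, a cluster of closely related transferases that conjugate epoxides and aryl halides, 4 genes were lower at 1 day. Gstm4 had ratios of -0.72, -0.56 and -0.23, Gstm3 of -0.54, -0.43 and -0.12, Gstm1 of -0.47, -0.37 and -0.08, and Gstm7 of -0.14, -0.26 and -0.16. For Gstm1, Gstm3 and Gstm4 the order of the arrays was the same, with replicate 1 lowest and replicate 3 closest to 0. The mean was -0.50 ± 0.09 for Gstm4 (1.42-fold lower, adjusted p = 0.0112), -0.37 ± 0.09 for Gstm3 (adjusted p = 0.0359), -0.31 ± 0.08 for Gstm1 (adjusted p = 0.0481) and -0.19 ± 0.05 for Gstm7 (adjusted p = 0.0493). The other probes gave -0.22 for Gstm4 (adjusted p = 0.0782) and -0.33 for Gstm3 (adjusted p = 0.118), which were not called, and -0.36 for Gstm1 (adjusted p = 0.0305) and -0.18 for Gstm7 (adjusted p = 0.043), which were. Without replicate 1 or without replicate 2 none of the 4 was called, and without replicate 3 Gstm1 (-0.42), Gstm3 (-0.49) and Gstm4 (-0.64) were.

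At 3 and 7 days Gstm4 lay between -0.17 and 0.17 and Gstm1 between 0.03 and 0.35 on the single arrays, and neither was called. Gstm2 and Gstm5 were called at no time, with means of -0.17 (adjusted p = 0.453) and -0.16 (adjusted p = 0.115) at 1 day. Gstm6 was called higher after H2-water, with ratios of 0.35, 0.19 and 0.19 (0.25 ± 0.06, adjusted p = 0.0249). Its other probes both gave 0.02, the median over its probes was 0.04 (adjusted p = 0.748), and the call was lost without any 1 array. Both of these probes were instead lower under MgH2, 1 of them at 1, 3 and 7 days (-0.26, -0.23 and -0.20, adjusted p = 0.0131, 0.009 and 0.0142) and the other at 1 and 3 days (-0.22 and -0.18, adjusted p = 0.0299 and 0.0292), so that the probes of Gstm6 disagreed.

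**Figure D2:**
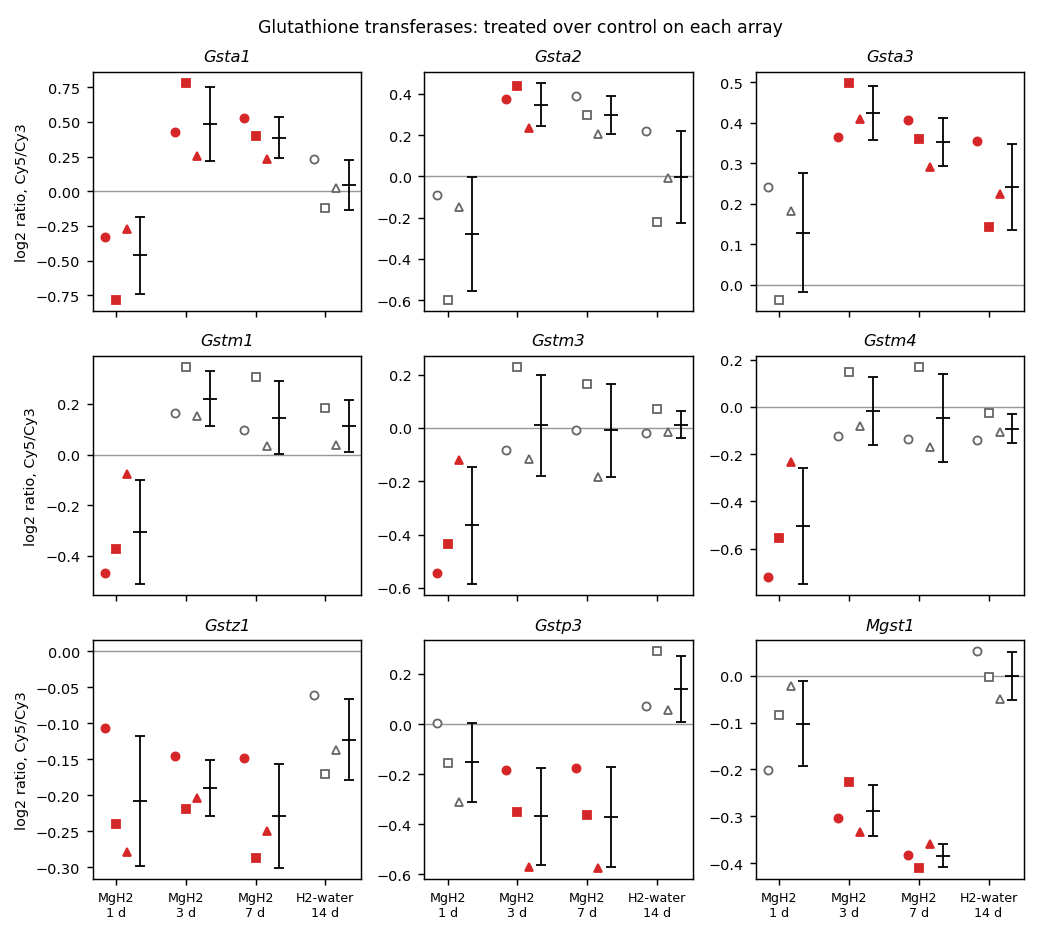
Log2 ratio of treated over control (vertical axis) for 9 glutathione transferase genes at 1, 3 and 7 days of MgH2 and 14 days of H2-water (horizontal axis). Circles, squares and triangles are replicates 1, 2 and 3, bars are mean ± SD of the arrays, and red filled symbols mark an adjusted p under 0.05. Gsta1 passed from below 0 at 1 day to above 0 at 3 and 7 days, and Gstz1 was below 0 on all 12 arrays. Mgst1 was below 0 on all 9 MgH2 arrays with the probe drawn, but not with its other probe at 1 day.

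Gstz1, maleylacetoacetate isomerase of tyrosine breakdown, was lower throughout MgH2 treatment. Its ratios were -0.11, -0.24 and -0.28 at 1 day, -0.15, -0.22 and -0.20 at 3 days, -0.15, -0.29 and -0.25 at 7 days and -0.06, -0.17 and -0.14 after H2-water. All 12 arrays were below 0, and replicate 1 was closest to 0 in each group. The means were -0.21 ± 0.04 (adjusted p = 0.0177), -0.19 ± 0.04 (adjusted p = 0.0125), -0.23 ± 0.04 (adjusted p = 0.00371) and -0.12 ± 0.04 (adjusted p = 0.112). The call at 7 days held without any 1 array, and those at 1 and 3 days were lost without replicate 2 (0.111 and 0.0752) or 3 (0.0996 and 0.0604). With normexp and loess the values were -0.09 (adjusted p = 0.175), -0.07 (adjusted p = 0.22) and -0.08 (adjusted p = 0.136), and Gstz1 was called at no time.

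Gsto1, an omega-class enzyme that reduces dehydroascorbate and arsenic compounds, was lower at 1 day (-0.21, -0.15 and -0.14, mean -0.17 ± 0.04, adjusted p = 0.024) and after H2-water (-0.13, -0.20 and -0.13, mean -0.15 ± 0.04, adjusted p = 0.0325). Gstk1, a mitochondrial and peroxisomal transferase, had ratios of -0.14, -0.18 and -0.07 at 1 day (-0.13 ± 0.03, adjusted p = 0.0387). Gstt2 of the theta class had -0.10, -0.30 and -0.32 at 1 day (-0.24 ± 0.06, adjusted p = 0.0485). All arrays of these groups were below 0, and each of these calls was lost without any 1 array. Gstt1, which acts on small halogenated compounds, was called at no time, with means of -0.18, -0.27, -0.26 and -0.002 at 1, 3, 7 and 14 days (adjusted p = 0.254, 0.0622, 0.0581 and 0.991).

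In the pi class, which conjugates a broad range of electrophiles and is more abundant in male than in female mouse liver, Gstp1 and Gstp2 varied between arrays of 1 group and were not called. Gstp2 had ratios of 0.01, 0.68 and 0.55 at 1 day, 0.41, 0.48 and 0.50 at 3 days, -0.14, 0.33 and 0.25 at 7 days and -1.01, -0.09 and -0.54 after H2-water. The ratios of Gstp1 were -0.06, 0.61 and 0.52, then 0.35, 0.43 and 0.39, then -0.18, 0.38 and 0.27, and then -0.81, 0.02 and -0.33. In both genes replicate 1 was the lowest array of each group. The adjusted p of Gstp2 was 0.15, 0.0695, 0.544 and 0.0755 at 1, 3, 7 and 14 days.

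Gstp3 had a low control signal of 2.76 to 4.70, scaled to a channel total of 1000000, and a different course. Its ratios were 0.01, -0.15 and -0.31 at 1 day, -0.18, -0.35 and -0.57 at 3 days, -0.18, -0.36 and -0.57 at 7 days and 0.07, 0.29 and 0.06 after H2-water. It was called lower at 3 days (-0.37 ± 0.09, adjusted p = 0.0188) and 7 days (-0.37 ± 0.09, adjusted p = 0.0142). The nearly equal values of each replicate number on these days are values of arrays whose control channels may hold the same RNA. The call at 3 days was lost without replicate 2 (0.076) or 3 (0.125), and that at 7 days without replicate 2 (0.0562) or 3 (0.112).

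Of the microsomal transferases, Mgst1, an abundant enzyme of the endoplasmic reticulum and the outer mitochondrial membrane that also reduces lipid hydroperoxides, was lower at 3 and 7 days. Its ratios were -0.20, -0.08 and -0.02 at 1 day, -0.30, -0.23 and -0.33 at 3 days, -0.38, -0.41 and -0.36 at 7 days and 0.05, -0.003 and -0.05 after H2-water. The arrays of 3 and 7 days lay below all arrays of 1 day and of H2-water. The means were -0.29 ± 0.04 at 3 days (1.22-fold lower, adjusted p = 0.00131) and -0.38 ± 0.04 at 7 days (1.3-fold lower, adjusted p = 0.000197), and both calls held without any 1 array. The other probe gave 0.11 at 1 day (adjusted p = 0.14), -0.11 at 3 days (adjusted p = 0.0898) and -0.18 at 7 days (adjusted p = 0.0132). It was called higher after H2-water (0.17, adjusted p = 0.0364). With normexp and loess the value was -0.09 at 3 days (adjusted p = 0.186), -0.19 at 7 days (adjusted p = 0.00726) and 0.17 after H2-water (adjusted p = 0.0244). The sign at 1 day thus depended on the probe, and the value after H2-water on the probe and on the processing.

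Mgst3, which makes leukotriene C4 and reduces hydroperoxides, had ratios of -0.15, -0.80 and -0.63 at 1 day, all below 0, with a mean of -0.53 ± 0.15 that was not called (adjusted p = 0.0526). At 3, 7 and 14 days its means were -0.15, -0.06 and 0.13 and were not called (adjusted p = 0.498, 0.781 and 0.667).

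Among the glucuronosyltransferases 1 gene was higher at all 4 times. Ugt2b34, of the subfamily that conjugates steroids and bile acids, had ratios of 0.22, 0.39 and 0.26 at 1 day, 0.39, 0.38 and 0.24 at 3 days, 0.26, 0.34 and 0.31 at 7 days and 0.32, 0.37 and 0.35 after H2-water. All 12 arrays were above 0 within a range of 0.22 to 0.39. The means were 0.29 ± 0.04 (1.22-fold, adjusted p = 0.00399), 0.33 ± 0.04 (1.26-fold, adjusted p = 0.000866), 0.30 ± 0.04 (1.23-fold, adjusted p = 0.000939) and 0.35 ± 0.04 (1.27-fold, adjusted p = 0.00135). Each of these calls held without any 1 array, and with normexp and loess the means were 0.27, 0.29, 0.27 and 0.31. Since the dyes were the same on all arrays, a dye effect of this probe cannot be told apart from the treatment.

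The family median was -0.05, 0.02, -0.02 and 0.02 at 1, 3, 7 and 14 days, and besides Ugt2b34 only 3 Ugt genes were called at any time. Ugt2b5, a major hepatic glucuronosyltransferase, had ratios of -0.32, -0.004 and -0.05 at 1 day, -0.18, -0.17 and -0.15 at 3 days, -0.52, -0.23 and -0.14 at 7 days and -0.44, -0.14 and -0.27 after H2-water. It was below 0 on all 12 arrays, with replicate 1 lowest in each group, and was called lower at 7 days (-0.30 ± 0.08, adjusted p = 0.0225) and not at 14 days (-0.29 ± 0.08, adjusted p = 0.0624). Ugt2b37 ran alongside, with -0.50, -0.23 and -0.12 at 7 days (-0.28 ± 0.08, adjusted p = 0.0247). Both calls were lost without replicate 1 (-0.18, adjusted p = 0.161, and -0.17, adjusted p = 0.175) or without replicate 2 (0.0553 and 0.0639).

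Ugt1a6b, of the subfamily that conjugates planar phenols, was higher after H2-water with ratios of 0.28, 0.25 and 0.22 (0.25 ± 0.04, adjusted p = 0.00928), while its MgH2 arrays lay between -0.07 and 0.14. The other probe of Ugt1a6b gave 0.07 (adjusted p = 0.517), and the call was lost without any 1 array (0.0555 to 0.0749). Ugt1a6a was near background and was called at none of the 3 times tested (-0.14, -0.14 and -0.32). Ugt2b1, another steroid-conjugating enzyme, ranged from -0.51 to 0.52 over the 12 arrays and was not called. Ugt3a1, which uses N-acetylglucosamine as donor, lay between -0.05 and 0.12 on all arrays. Ugt2a3 was not called, with its lowest mean after H2-water (-0.16, adjusted p = 0.106).

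**Figure D3:**
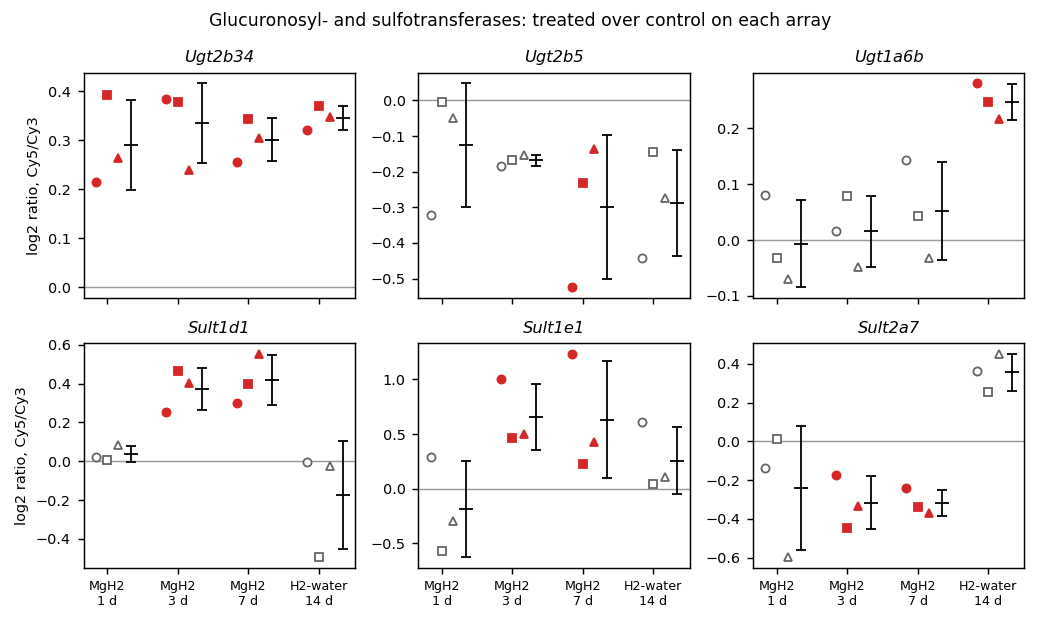
Log2 ratio of treated over control (vertical axis) for 3 Ugt and 3 Sult genes at the 4 times (horizontal axis). Circles, squares and triangles are replicates 1, 2 and 3, bars are mean ± SD, and red filled symbols mark an adjusted p under 0.05; the 12 ratios of Ugt2b34 lay between 0.22 and 0.39, and Sult1d1 was above 0 on all arrays of 3 and 7 days and below 0 on those of 14 days.

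Of the sulfotransferases of family 1, which act on phenols, catechols and estrogens, Sult1d1 and Sult1e1 were higher at 3 and 7 days. Sult1d1, an enzyme of catecholamine and eicosanoid sulfation, had ratios of 0.02, 0.01 and 0.08 at 1 day, 0.25, 0.46 and 0.40 at 3 days, 0.30, 0.40 and 0.55 at 7 days and -0.01, -0.50 and -0.03 after H2-water. The 6 arrays of 3 and 7 days were above all others. The means were 0.37 ± 0.09 at 3 days (adjusted p = 0.0147) and 0.42 ± 0.09 at 7 days (adjusted p = 0.00648), and the other probe gave 0.67 (adjusted p = 0.00655) and 0.60 (adjusted p = 0.00775). The call at 3 days was lost without replicate 2 (0.0906) or 3 (0.0703) and that at 7 days without replicate 3 (0.0562).

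Sult1e1, the estrogen sulfotransferase, is known to be raised in the liver of obese and diabetic mice. Its ratios were 0.29, -0.57 and -0.30 at 1 day, 1.00, 0.46 and 0.50 at 3 days, 1.24, 0.22 and 0.43 at 7 days and 0.61, 0.05 and 0.11 after H2-water. Replicate 1 was the highest array of every group. The means were 0.66 ± 0.21 at 3 days (adjusted p = 0.048) and 0.63 ± 0.21 at 7 days (adjusted p = 0.0472). Without replicate 1 they were 0.48 (adjusted p = 0.228) and 0.33 (adjusted p = 0.31), and the call at 3 days was lost without any 1 array and that at 7 days also without replicate 3 (0.0963).

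Sult1a1, the main phenol sulfotransferase, was not called with the probe used. Its ratios were -0.38, -0.22 and -0.17 at 1 day, 0.04, 0.42 and 0.05 at 3 days, 0.14, 0.27 and 0.16 at 7 days and -0.06, -0.62 and -0.16 after H2-water, with adjusted p of 0.147, 0.262, 0.19 and 0.128. Within each group the arrays had 1 sign, below 0 at 1 and 14 days and above 0 at 3 and 7 days. The other probe of Sult1a1 was called higher at 7 days (0.29 ± 0.10, adjusted p = 0.0454) and gave 0.26 at 3 days (adjusted p = 0.082). Sult1b1 and Sult1c2 were called at no time. Sult4a1, a brain isoform near background here, had -0.26, -0.33 and -0.27 after H2-water (adjusted p = 0.0818).

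Sult2a7, of the subfamily that sulfates bile acids and hydroxysteroids, was lower at 3 and 7 days. Its ratios were -0.14, 0.01 and -0.60 at 1 day, -0.17, -0.45 and -0.33 at 3 days, -0.24, -0.34 and -0.37 at 7 days and 0.36, 0.26 and 0.45 after H2-water. The 3 H2-water arrays were above all MgH2 arrays. The means were -0.32 ± 0.10 at 3 days (adjusted p = 0.041), -0.32 ± 0.10 at 7 days (adjusted p = 0.0342) and 0.36 ± 0.10 after H2-water (adjusted p = 0.0528). Both calls were lost without any 1 array (0.0579 to 0.206 at 3 days and 0.0797 to 0.148 at 7 days).

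Large differences between arrays were seen in 6 sulfotransferases, Sult2a1, Sult2a2, Sult2a3, Sult2a6, Sult3a1 and Sult3a2, and none of them was called at any time with the probe used. Their SD within groups had a median of 1.18 (0.666 to 2.35) on the log2 scale, against a median of 0.161 for the other 42 members above background on all arrays, of which Sult5a1 had the highest with 0.905. These 6 genes were picked by subfamily and spread after their values were seen, so their spread is a description. Sult5a1 was left out of the set although it varied more than Sult2a6 (0.715) and Sult2a2 (0.666). Sult2a1, the main hydroxysteroid sulfotransferase, had ratios of 0.14, -1.41 and -4.71 at 1 day, -0.20, 0.44 and -3.85 at 3 days, 4.70, -0.26 and -1.41 at 7 days and 1.39, 0.78 and 1.39 after H2-water. The MgH2 arrays thus spanned both signs in every group, and the H2-water arrays were all above 0. The means were -1.99 ± 1.21, -1.20 ± 1.21, 1.01 ± 1.21 and 1.19 ± 1.22 (adjusted p = 0.333, 0.51, 0.565 and 0.619).

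The other genes of this set also spanned both signs among the MgH2 arrays. The ratios of Sult3a1 were 0.54, -0.79 and -1.90 at 1 day, -0.30, 0.24 and -1.14 at 3 days, 1.72, -0.05 and -0.60 at 7 days and 2.12, 0.53 and 0.92 after H2-water. The median of the 6 genes on the arrays was 0.14, -0.95 and -2.33 at 1 day, -0.24, 0.24 and -1.36 at 3 days, 1.90, -0.27 and -0.88 at 7 days and 1.31, 0.41 and 0.92 at 14 days. Only the 3 H2-water arrays were all above 0. Fitted on these 3 arrays alone, Sult2a1 was called higher (1.19, adjusted p = 0.0485), as was Sult2a4 (1.67, adjusted p = 0.0307). Of the other probes of Sult2a6, 1 was tested after H2-water only, with ratios of 1.31, 0.31 and 1.00 (SD 0.51). It was called higher there (0.88 ± 0.17, adjusted p = 0.0123). That SE also rests on the MgH2 arrays, where this probe was mostly below background, so the call adds no support. The other gave 0.77 (adjusted p = 0.264).

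The signals of the single channels showed in which RNA the differences lay. The control signal of Sult2a1, on the same scale with a channel total of 1000000, was 1.48, 3.30 and 43.3 in replicates 1, 2 and 3 of 1 day, 1.41, 3.40 and 43.3 of 3 days and 1.31, 3.42 and 41.8 of 7 days. The treated signal was 1.60, 1.21 and 1.62 at 1 day, 1.21, 4.49 and 2.96 at 3 days and 33.7, 2.78 and 15.5 at 7 days. The control pool numbered 3 was thus high on all 3 days, and of the treated pools those numbered 1 and 3 at 7 days were high. In the H2-water experiment the control signals were 13.5, 34.1 and 23.5 and the treated signals 35.0, 57.4 and 60.7. The control signal of Sult3a1 was 27.2, 42.0 and 92.3 in the same pools at 1 day, and again the pool numbered 3 was highest.

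Sult5a1 showed the opposite order. Its ratios were -1.39, 0.41 and 1.06 at 1 day, -0.82, -0.44 and 0.82 at 3 days, -1.47, -0.71 and 0.41 at 7 days and -0.54, -0.17 and -0.22 after H2-water. Its control signal was 3.56, 1.56 and 1.06 in replicates 1, 2 and 3 at 1 day, highest in the pool in which that of Sult2a1 was lowest. Sult2a4 was above background in both channels of all arrays only in the H2-water group. At 1 day it was below background in all 3 treated pools and above it in 2 of the 3 control pools. Its ratios there were 1.63, -1.74 and -5.96. For comparison, the treated signal was set to the lowest signal above background of each array, after Aquantile normalization of the channels. The mean of the 3 control pools was then 4.01-fold higher. This mean includes the control pool below background and rests mostly on replicate 3, so it holds for no single pool.

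**Figure D4:**
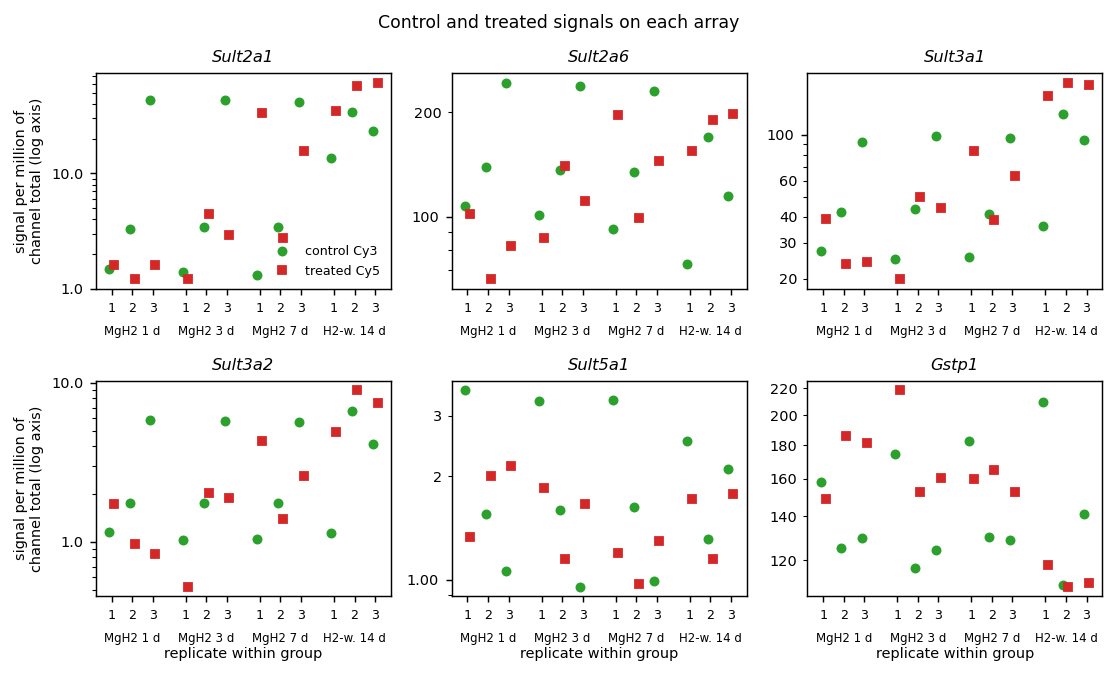
Control (Cy3) and treated (Cy5) signal scaled to a channel total of 1000000 (vertical axes, log scale) of Sult2a1, Sult2a6, Sult3a1, Sult3a2, Sult5a1 and Gstp1 for each array (horizontal axes, by group and replicate). The Cy3 signals of Sult2a1 at 1, 3 and 7 days repeat by replicate number, near 1.4, 3.4 and 43, whereas the Cy5 signals do not.

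Genes of sex-biased liver expression were set beside these values, since all mice were labelled male. Among genes known to be higher in female liver, 9 were above background on all arrays, with medians of -0.03, -0.54 and -0.59 at 1 day, 0.15, 0.31 and 0.01 at 3 days, 0.62, 0.21 and 0.05 at 7 days and 0.33, -0.03 and 0.39 at 14 days. For 13 genes higher in male liver the medians were -0.21, 0.41 and 0.29, then -0.12, 0.17 and 0.08, then -0.42, 0.16 and -0.17, and then -0.59, -0.15 and -0.43. The female-biased genes had their highest median on replicate 1 of 7 days and their lowest on replicate 3 of 1 day, as had the 6 sulfotransferases, but on replicate 3 of 3 days the former were near 0 and the latter low. The Y-linked genes Ddx3y and Eif2s3y were above background on all 12 arrays. Of the other Y-linked genes listed, Uty was above background on the H2-water arrays only and Kdm5d on none, as was Xist. Both lists were drawn up after the values had been seen, and their part in the results was not tested.

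The times were also compared directly. Between 3 days and 1 day 0 of 50 members were called and 15 had an unadjusted p under 0.05, and 0.0208% of all probes were called, 0.0156% higher and 0.0052% lower. Between 7 days and 1 day 5 of 49 were called (6.94% of all probes, 3.25% higher and 3.68% lower), namely Gsta1 (difference of the log2 ratios 0.85 ± 0.17, adjusted p = 0.0209), Gsta2 (0.58 ± 0.14, adjusted p = 0.0409), Gsta4 (0.26 ± 0.07, adjusted p = 0.0421) and Gstm1 (0.45 ± 0.11, adjusted p = 0.0479) above and Mgst1 (-0.28 ± 0.06, adjusted p = 0.0218) below. Between 7 and 3 days 0 of 50 were called and 0 had an unadjusted p under 0.05, with 0% of all probes called and 904 of them at an unadjusted p under 0.05. The Gst family had a median difference of 0.25 between 3 days and 1 day, with 18 of 20 above 0, and of 0.24 between 7 days and 1 day, against 0.007 and 0.008 for all probes. The share of all probes above 0 is not given.

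The replicate numbers of the MgH2 arrays paired the ratios, so the differences were also fitted with the replicate number as a block. With the block 1 member was called between 3 days and 1 day (Sult1e1, 0.85, adjusted p = 0.0387) and 11 between 7 days and 1 day, 9 above and 2 below. Those above were Gsta1, Gsta2, Gsta4, Gstm1, Gstm4, Gstm5, Gsto1, Mgst3 and Sult1e1, and those below Mgst1 and Ugt2b1. The share of all probes called with the block is not given, so these counts describe the members only. Without the block, 0 to 3 members were called between 7 days and 1 day when single arrays were left out: 0, 1 and 0 without replicate 1, 2 and 3 of 7 days, and 2, 0 and 3 without those of 1 day. No slide held arrays of both days, and with slide as a fixed block 0 members were called.

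H2-water at 14 days differed from MgH2 at 7 days in agent, control, duration and slide, which cannot be told apart. In this comparison 4 of 49 members were called (6.59% of all probes, 3.45% higher and 3.14% lower), with Mgst1 (0.38 ± 0.06, adjusted p = 0.0113), Sult2a7 (0.67 ± 0.14, adjusted p = 0.0248) and Gstp3 (0.51 ± 0.13, adjusted p = 0.0454) higher and Sult1d1 (-0.59 ± 0.12, adjusted p = 0.0267) lower after H2-water. The difference in Mgst1 held without any 1 array. The number called was 2, 1 and 1 without replicate 1, 2 and 3 of H2-water and 4, 1 and 1 without those of MgH2. Centring on the median gave 8 higher and 0 lower, normexp with loess 2 and 3, and Sult1d1 was then not called with centring (-0.42, adjusted p = 0.0646).

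Genes of the surrounding pathways were counted beside the share of all probes, of which 5.15, 12.3, 15.3 and 4.95% were called higher and 4.23, 11.1, 14.2 and 3.91% lower at 1, 3, 7 and 14 days. Of 14 tested genes of glutathione synthesis and recycling, Cth (-0.37) and Cbs (-0.22), the transsulfuration enzymes that make cysteine, were lower at 1 day, glutathione reductase Gsr was higher at 3 days (0.13) and 7 days (0.18), and Cbs was lower after H2-water (-0.25). At 7 days the dipeptidase Dpep1 was also higher (0.63) and Chac2, which degrades glutathione, lower (-0.17). The list medians were -0.02, 0.001, -0.04 and -0.001 at 1, 3, 7 and 14 days. Of the genes of UDP-glucuronate supply, 1 of 7, 2 of 8, 1 of 8 and 2 of 8 were called higher and 0 lower. They were the transporter Slc35d1 at 1 day (0.19) and 3 days (0.16), the transporter Slc35a3 at 3 days (0.14), 7 days (0.15) and 14 days (0.14), and Ugdh, UDP-glucose dehydrogenase, at 14 days (0.23). The medians were 0.13, 0.06, 0.04 and 0.11.

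For sulfation, Papss1, which makes PAPS, was lower at 3 days (-0.37) and 7 days (-0.39). The sulfate transporter Slc26a1 was higher at 1 day (0.31), 3 days (0.15) and 14 days (0.30), the phosphatase Bpnt2 at 3, 7 and 14 days (0.26, 0.29 and 0.18) and the PAPS transporter Slc35b3 at 7 days (0.18). In all 1, 2, 2 and 2 genes of this list were called higher and 0, 1, 1 and 0 lower, of 8, 8, 8 and 7 tested. Of 6 tested genes for hydrolases (Gusb, Arsa, Arsb, Nceh1, Ces2a and Ces1d), 1, 0, 1 and 1 were lower and 0 higher. They were Ces1d at 1 day (-0.22) and Arsb at 7 days (-0.22) and 14 days (-0.25). Whether these enzymes act on conjugates made by the members was not tested.

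Of 10 tested genes for exporters of conjugates, 2, 4, 3 and 2 were called higher and 0, 1, 2 and 1 lower at 1, 3, 7 and 14 days, with list medians of 0.07, 0.09, 0.08 and 0.15. Abcc6 was higher at all times (0.22, 0.21, 0.21 and 0.22), Abcc2, which exports conjugates into bile, at 1 day (0.23) and 3 days (0.20), Abcc3, which exports glucuronides into blood, at 3 days (0.25) and 7 days (0.22), and Abcc5 at 3, 7 and 14 days (0.28, 0.33 and 0.40). Lower were Rdx, which anchors Abcc2 to the canalicular membrane, at 3, 7 and 14 days (-0.29, -0.61 and -0.26) and the bile salt pump Abcb11 at 7 days (-0.17).

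Of the xenobiotic receptors, Nrf2 pathway genes and their targets, 20 genes were tested at 1, 3 and 7 days, of which 0, 3 and 4 were higher and 1 lower each time. Cyp3a11, a target of the pregnane X receptor, was higher at 3 days (0.41) and 7 days (0.38), and Por, the reductase of cytochromes P450, at 7 days (0.51). Nqo1, a target of Nrf2, was lower at 1 day (-0.26) and higher at 7 days (0.26), Keap1, the inhibitor of Nrf2, was lower at 3 days (-0.18) and 7 days (-0.33), and Bach1, a repressor at Nrf2 sites, was higher at both (0.28 and 0.24). The transcription factor Maf was higher at 3 days (0.16), and Hnf4a, a nuclear receptor that maintains hepatocyte gene expression, was lower after H2-water (-0.21). The list medians were -0.02, 0.10 and 0.09.

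Markers of the cells in the samples were examined beside these results. The 8 hepatocyte markers were above background on all arrays at 1, 3 and 7 days and had medians of 0.02, 0.11, 0.11 and -0.18 at the 4 times. Of 8 tested markers of Kupffer and immune cells 1 was higher and 3 lower at 3 days (median -0.31) and 4 lower at 7 days (median -0.39), and their summed signal, on the scale above, was 120.5 to 147.4 in the control and 91.8 to 107.8 in the treated pools at 3 days, and 127.0 to 143.6 and 93.7 to 105.5 at 7 days. Of the stellate cell markers 3 of 7 were lower at 3 days and 3 of 8 at 7 days. Of 8 cholangiocyte markers 4 to 5 were above background on all arrays of each MgH2 group and channel, Epcam and Cftr on none, and of 4 tested at 3 days 1 was lower (median -0.19). The part of these shifts in the values of Mgst1 and of the other members was not tested, and fewer cells of a type and less RNA per cell cannot be told apart in whole liver.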

How the data were processed

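Liver RNA of 12 treated and 12 control pools was hybridized on 12 Agilent two-colour arrays of 44397 features. Per the labels and the file headers, spots were read with Agilent Feature Extraction, version 10.10.1 in the submitters' processing notes, 10.7.3.1 in the headers of the 14-day arrays and 10.10.1.1 in those of the others. The deposited processed signals are intensity values on a linear scale, from which the authors' software had subtracted the background and corrected the dyes by linear and lowess normalization. The deposited table holds log2 ratios of the same arrays, and the log10 ratios in the array files were not used. The array format named in the methods differs from that of the files.

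Ratios were formed as log2 of the Cy5 over the Cy3 processed signal, spots marked as non-uniform or outliers (160 to 244 of 43020) were left out, and spots of 1 probe were averaged. Probes were named through their RefSeq accession, which matched 67.0% of 39429 probes. A single limma model (version 3.58.1, R 4.3.3) held the 12 arrays, and each group mean was tested against 0 and the differences between times as contrasts. P-values were adjusted by the Benjamini-Hochberg method over the 18745 to 20479 probes well above background in both channels of all arrays compared. No interval for counting error applies to arrays, and the 3 arrays per group limit the precision. On simulated data with 200 probes changed 1.5-fold, 79 to 80% were called at the single times and 62.5 to 70% in the contrasts. Up to 7.8% of the simulated calls were of unchanged probes. The simulated noise was independent between arrays, unlike that of the same-numbered arrays here. Most members called at single times changed by less than 1.5-fold, and the recovery of such changes was not tested. Promoters were aligned with Biopython 1.88.

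The members and lists were chosen with earlier results of these data known. Named genes were all members called in any comparison, the largest rise and fall of each family at each time, a fixed set of members whatever their values and the called genes of the pathway lists. The 6 sulfotransferases of large spread, Gstm2, Gstm5 and Ugt2b37 beside Ugt2b5 were set out after their values were seen. Calls among the sex-biased genes and 1 other result are not reported here. Same-numbered arrays of 1, 3 and 7 days deviated together in their ratios (r = 0.37 to 0.65 over all probes, 9 pairs), so the numbers were taken to pair them. The alternatives tried were other scalings of the channels, normexp with an offset of 50 and loess, no filter on dim probes, only the arrays compared, the deposited table, slide and replicate number as blocks, the median over a gene's probes, the methods' t-test and leaving out each array.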

Additional observations from a re-analysis of the deposited data

Results flagged for a closer look

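The change against control differed between 7 days and 1 day of MgH2 for 5 of 49 members by a limma contrast adjusted over all probes tested. Of all probes, 6.94% were called in this contrast. The difference of the log2 ratios was 0.85 for Gsta1 (-0.46 at 1 day and 0.39 at 7 days), 0.58 for Gsta2, 0.26 for Gsta4, 0.45 for Gstm1 and -0.28 for Mgst1. In Gsta1, Gsta2, Gsta4 and Gstm1 all 3 arrays of 1 day were below 0 and all 3 of 7 days above 0. In Mgst1 all 3 arrays of 7 days were below all of 1 day. The genes were flagged from these same arrays, so the separation is a description and no further support, and its share over all probes is not given. The control channels of these days resemble each other by replicate number, as described above.

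Between H2-water at 14 days and MgH2 at 7 days 4 of 49 members were flagged, and 6.59% of all probes were called. The difference was 0.51 for Gstp3, 0.38 for Mgst1, -0.59 for Sult1d1 and 0.67 for Sult2a7. The arrays of the groups did not overlap in these 4 genes, which again describes genes flagged from the same arrays. Agent, duration and slide cannot be told apart in this contrast. Groups of 3 arrays were too small for a test of single outlying arrays.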

How the results depend on the processing

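Of the 46 calls of members in the report, 24 were made under each of the 5 scalings, 10 with each array left out in turn and 7 under every alternative that left no array out, the methods' t-test set aside. Calls that passed in all of both were 5: Gsta3 and Mgst1 at 7 days, Ugt2b34 at 7 and 14 days, and Mgst1 between H2-water and 7 days. A change of sign was counted as a reversal only where the main or the alternative result was called. By this rule 1 of 293 member results reversed, Mgst1 after H2-water. Its mean was -2.5e-05 in the main fit, in effect no change, and 0.17 with normexp and loess. Changes of sign among results not called were not counted. Centring on the median of the probes above background was chosen after seeing the data and moved no count by over 1.5 times.

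The number of members called at 1 day (10) was 3 with arrays centred on the median, 2 without the filter on dim probes, 0 with only the arrays of the group and 1 to 4 with single arrays left out. At 3 days (11) it was 4 without the filter, 1 with only its own arrays, 5 by the methods' t-test unadjusted and 3 to 6 with single arrays left out. At 7 days (11) it was 7 with only its own arrays and 6 to 7 with single arrays left out. At 14 days (5) it was 10 with normexp and loess, 3 without the filter, 3 with only its own arrays, 9 with slide as a random block, 3 with the median over probes, 8 by the methods' t-test unadjusted and 1 with any array left out. After Benjamini-Hochberg adjustment the methods' t-test called 0 members at each time.

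Between 3 days and 1 day, 1 member was called with the replicate block and 0 under every other alternative, also within the slide that holds both. Between 7 days and 1 day (5) the count was 2 with arrays centred on the median, 0 without the filter, 0 with only the arrays compared, 11 with slide as a random block, 11 with the replicate block, 0 with slide as a fixed block and 0 to 3 with single arrays left out. Between 7 and 3 days it was 0 under every alternative, with the replicate block and within 1 slide included. Between H2-water and 7 days (4) it was 8 with arrays centred on the median, 2 with only the arrays compared and 1 to 4 with single arrays left out. There the arrays share only a number (r = 0.03 to 0.29), and the replicate block gave 12. The causes were not tested, except that fits on fewer arrays have less information on the spread. Probes near background could not be tested, which left out 6 members.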
